A study of Homo sapiens with 30 samples.

Results

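Contacts of the CTCF site S2 were compared between K562 cells mutated at the CTCF site S4 and unedited (WT) K562 cells, from the 2 libraries labelled S4 mutant and the 2 labelled WT at the S2 viewpoint, 4 of the 30 libraries of the series. K562 is a human chronic myeloid leukaemia line, and every group was made from it. 4C-seq joins cross-linked, DpnII-cut chromatin by ligation and counts the fragments joined to a chosen one, the viewpoint, so that the read count at a fragment end is a measure of how often that place was joined to S2. The S2 viewpoint was also profiled in S2 mutant, S5 mutant and S4-S5 mutant cells, with 2 libraries each, and these 6 libraries entered the same fits. What the S4 mutation replaced or removed, whether a mutant line is 1 clone, and where S5 lies are not given in the labels.

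CTCF is a DNA-binding protein at which loop-extruding cohesin pauses, and pairs of CTCF sites often mark the 2 ends of a chromatin loop and the border of a contact domain. NOTCH1 encodes a transmembrane receptor that is cut on ligand binding and whose released intracellular part acts in transcription. The series asked what contacts were left when CTCF sites around NOTCH1 were mutated, singly or, for S4 and S5, together. Here the mutated site was the partner at the far end of the loop from the viewpoint.

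In hg19, the coordinates of the files, the S2 viewpoint was centred on chromosome 9 position 139385872, the NOTCH1 promoter viewpoint on 139443268 (57.4 kb telomeric of S2) and the S4 viewpoint on 139523746 (137.9 kb telomeric of S2). In RefSeq's order of protein-coding genes (GRCh38.p14, used for order alone), SEC16A and INPP5E are the nearest genes centromeric of NOTCH1, and EGFL7 and AGPAT2 the nearest telomeric. SEC16A acts at the exit sites of the endoplasmic reticulum, INPP5E is a phosphoinositide phosphatase of the cilium, EGFL7 is a secreted protein of endothelial cells and AGPAT2 is an enzyme of phospholipid and triglyceride synthesis. The 250 bases upstream of the NOTCH1 start are shown because DpnII cuts at GATC, so that a contact of the promoter is read only at the nearest GATC sites (RefSeq, GRCh38.p14, chr9:136546049-136546298, minus strand, coordinates not comparable with hg19).
NOTCH1 promoter: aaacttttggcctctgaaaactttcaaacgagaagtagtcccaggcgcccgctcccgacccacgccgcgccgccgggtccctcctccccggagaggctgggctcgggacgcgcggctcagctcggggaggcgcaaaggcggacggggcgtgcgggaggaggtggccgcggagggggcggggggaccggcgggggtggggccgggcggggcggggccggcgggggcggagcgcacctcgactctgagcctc
GATC, which reads the same on both strands, occurred 0 times in it, and occurred in 35.8% of the 35116 promoter windows of this length. The 10-kb hg19 window around the promoter viewpoint held 29 fragment ends.

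Reads within 5 kb of S2 were masked, and the remaining ones up to 500 kb from it are termed near-cis. The S4 mutant libraries held 2030329 and 2288603 near-cis reads, and the WT libraries 499045 and 653924. WT stood apart from all 4 mutants: near-cis reads made up 87.5% ± 0.123 of chromosome 9 reads outside the mask in the S4 mutant, 81.6 to 88.2% in the other mutants' libraries and 70.0% ± 0.00238 in WT (SD, n = 2 per genotype). The S4 mutant libraries had reads at 46.1 and 48.0% of the 3240 near-cis ends, and the WT libraries at 57.2 and 57.7% although they were shallower. At the depth of the shallowest library these shares came to 39.2% ± 0.471 and 56.9% ± 0.442 (SD, n = 2 each).

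The 2 S4 mutant libraries shared their rare ligation products, and so did the 2 WT libraries. Of the ends over 10 Mb from S2 with at least 10 reads in an S4 mutant or WT library, 99.8 to 100% also had a read in the other library of that genotype, against 18.1 to 64.2% in libraries of other genotypes. The S5 and S4-S5 mutant pairs shared 100% of such ends, while in the S2 mutant 10 of 26 ends of the first library and 8 of 8 of the second were read in the other. Over near-cis ends, which are not independent replicates, S4 mutant and WT libraries correlated at r = 0.571 to 0.583 on the log2 scale, and the WT libraries with each other at 0.990. The labels call the 2 libraries independent but name no separate cultures, and they were kept as 2 samples because the labels list them so. Counts of a pair differed by more than counting noise (chi-square per degree of freedom 11.9 in the S4 mutant and 1.94 in WT), which repeat amplifications without molecular identifiers can also show, so this does not bear on whether they are separate samples. Every p-value below therefore measures the spread between such paired libraries, which may be technical, and a small one does not show that separately grown or fixed cells would differ.

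The share of S2 contacts at S4 did not differ past the test between the S4 mutant and WT, while contacts beyond S4 were fewer and contacts between S2 and the promoter were more frequent. Of the 9 regions, 8 passed the test (88.9%). Values are shares of a library's near-cis reads, so that a share can be lower in a region because another is higher. The 20 kb centred on S4 (139513746 to 139533746) held 9.78 and 10.0% of near-cis reads in the S4 mutant libraries, and 9.83 and 9.71% in the WT libraries. The groups overlapped, and the log2 fold change of 0.02 (SE 0.02) did not pass the test (edgeR quasi-likelihood F test, adjusted p = 0.435). This level depended on what it was set against: scaled to all chromosome 9 reads outside the mask, of which WT had fewer near S2, the same window was higher in the S4 mutant by 0.34 on the log2 scale (edgeR, adjusted p = 5.12e-09), and over non-blind ends alone (those of fragments that hold a site of the second enzyme) by 0.36. No scaling or choice of ends gave a fall that passed the test against WT. The S5 mutant held 10.9% ± 0.0889 and the S4-S5 mutant 11.0% ± 0.13, the S2 mutant 9.79% ± 0.293 (SD, n = 2 each), and the S4 mutant was below the S5 mutant by 0.14 on the log2 scale (edgeR, adjusted p = 0.000114).

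Within that window the signal was placed differently. In 5-kb bins, of which 160 of 186 passed the test (86%), the bin from 139515001, just centromeric of S4, took 4.06 and 4.26% of near-cis reads in the S4 mutant and 2.86 and 2.76% in WT, a log2 fold change of 0.57 (SE 0.05, edgeR adjusted p = 1.68e-06). The bin from 139520001, in which S4 lies, took 2.02 and 2.09% in the S4 mutant and 2.27 and 2.24% in WT, and did not pass the test (edgeR, adjusted p = 0.0621). The 2 bins telomeric of it, from 139525001 and 139530001, were lower in the S4 mutant by 0.27 and 0.60 on the log2 scale. Bins of 5 kb were compared by near-cis totals alone, so whether these falls hold under another scaling was not tested. The plot of 5-kb bins around S4 shows the tallest S4 mutant bar on the centromeric flank and the tallest WT bar on the telomeric flank. A narrow gap on the centromeric side, the bin from 139510001, held 0.104 and 0.114% in the S4 mutant against 0.531 and 0.565% in WT. The other mutants shared both centromeric differences. The bin from 139515001 took 3.58 and 3.74% (S2 mutant), 3.93 and 4.17% (S5 mutant) and 3.76 and 4.03% (S4-S5 mutant). For 139510001 these were 0.0018 and 0.0016%, 0.070 and 0.067%, and 0.080 and 0.081%. In the bins from 139525001 and 139530001 the S4 mutant was below the S5 mutant (log2 -0.45 and -0.51), but the S2 mutant was also below WT. The S4-S5 mutant, in which S4 was mutated too, did not share these falls. It took 3.04 and 2.97% in the bin from 139525001 (log2 -0.02 against WT, edgeR adjusted p = 0.504). In the bin from 139530001 it took 3.02 and 2.83%, above WT (log2 0.16).

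**Figure D1:**
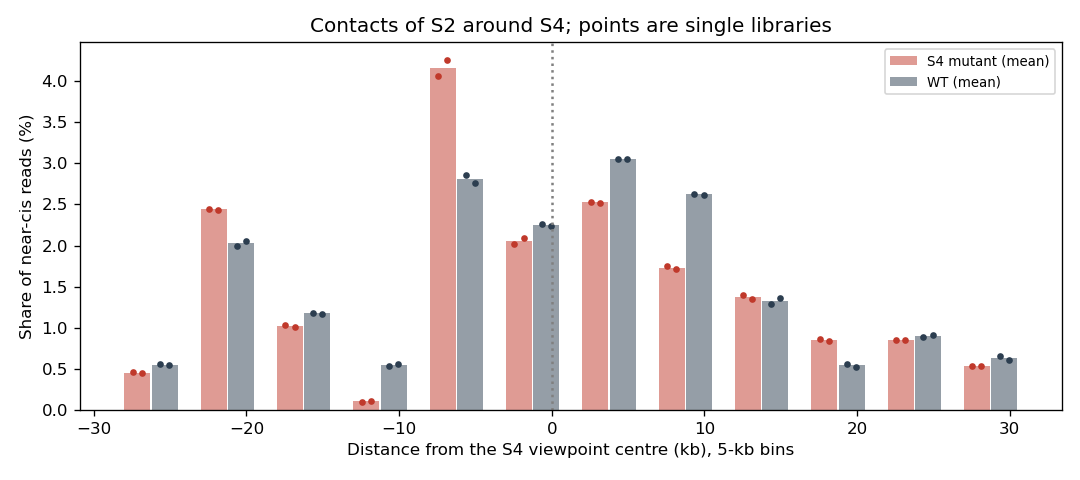
Share of near-cis reads from S2 (%, vertical) in 5-kb bins by distance from the centre of the S4 viewpoint (kb, horizontal), bars for the mean of 2 libraries and points for each library, S4 mutant left of WT. The bin from 139515001 is higher in both S4 mutant libraries (4.06 and 4.26%) than in both WT libraries (2.86 and 2.76%), and the bins from 139525001 and 139530001 are lower.

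On the 10-kb grid the bin that holds S4 (139520001 to 139530000) took 4.55 and 4.61% in the S4 mutant libraries and 5.32 and 5.29% in the WT libraries. The groups did not overlap, and the log2 fold change was -0.21 (SE 0.03, edgeR adjusted p = 2.38e-05). It was the highest bin outside 50 kb in both genotypes. The fall reversed to 0.11 when scaled to chromosome 9 reads, 0.10 with TMM factors and 0.17 with DESeq2, so that its direction is not settled. The next bin telomeric, from 139530001, was lower in the S4 mutant (3.10% ± 0.0592 against 3.95% ± 0.0408, SD, n = 2 each, log2 -0.35). That call was lost by chromosome 9 reads (-0.025, edgeR adjusted p = 0.539) and with TMM factors (-0.031, edgeR adjusted p = 0.525), and the value turned to 0.037 with DESeq2 and 0.61 over non-blind ends alone, so its direction is not settled either. The bin from 139510001 was higher (4.27% ± 0.144 against 3.36% ± 0.0424, log2 0.35), and higher under every other scaling tried and over non-blind ends alone.

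Reads between the mask and the promoter window (139390873 to 139438267) made up 31.9 and 32.1% of near-cis reads in the S4 mutant libraries and 23.6 and 23.6% in the WT libraries. Both S4 mutant values lay above both WT values, a log2 fold change of 0.44 (SE 0.01, edgeR adjusted p = 9.09e-11). The S2, S5 and S4-S5 mutants held 35.7% ± 0.0696, 32.5% ± 0.311 and 34.5% ± 0.513, in that order (SD, n = 2 each), so all 4 mutants were above WT. Against the S5 mutant the S4 mutant did not pass the test (log2 -0.02, edgeR adjusted p = 0.103), and against the mean of the S2 and S5 mutants it was lower by 0.09. The higher share was thus common to the 4 mutants.

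The bin holding the NOTCH1 promoter (139440001 to 139450000) took 2.36 and 2.35% of near-cis reads in the S4 mutant and 1.95 and 1.95% in WT. It rose by 0.27 on the log2 scale (SE 0.03, edgeR adjusted p = 1.97e-05). Its mean in the S2, S5 and S4-S5 mutants was 2.39, 2.34 and 2.13%, and the S4 mutant did not pass the test against the S5 mutant (log2 0.01, edgeR adjusted p = 0.754). The bin rests on few ends: 12 of 29 had a read in each S4 mutant library and 18 in each WT library. The end at 139442214 took 0.834 and 0.843% in the S4 mutant against 0.585 and 0.576% in WT. The promoter viewpoint's own end, at 139442069, was lower, at 0.169 and 0.179% against 0.266 and 0.268%. Between the promoter window and the S4 window the share was 12.8% ± 0.0613 in the S4 mutant and 14.3% ± 0.0827 in WT (SD, n = 2 each, log2 -0.16), and this turned to 0.16 when scaled to chromosome 9 reads.

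**Figure D2:**
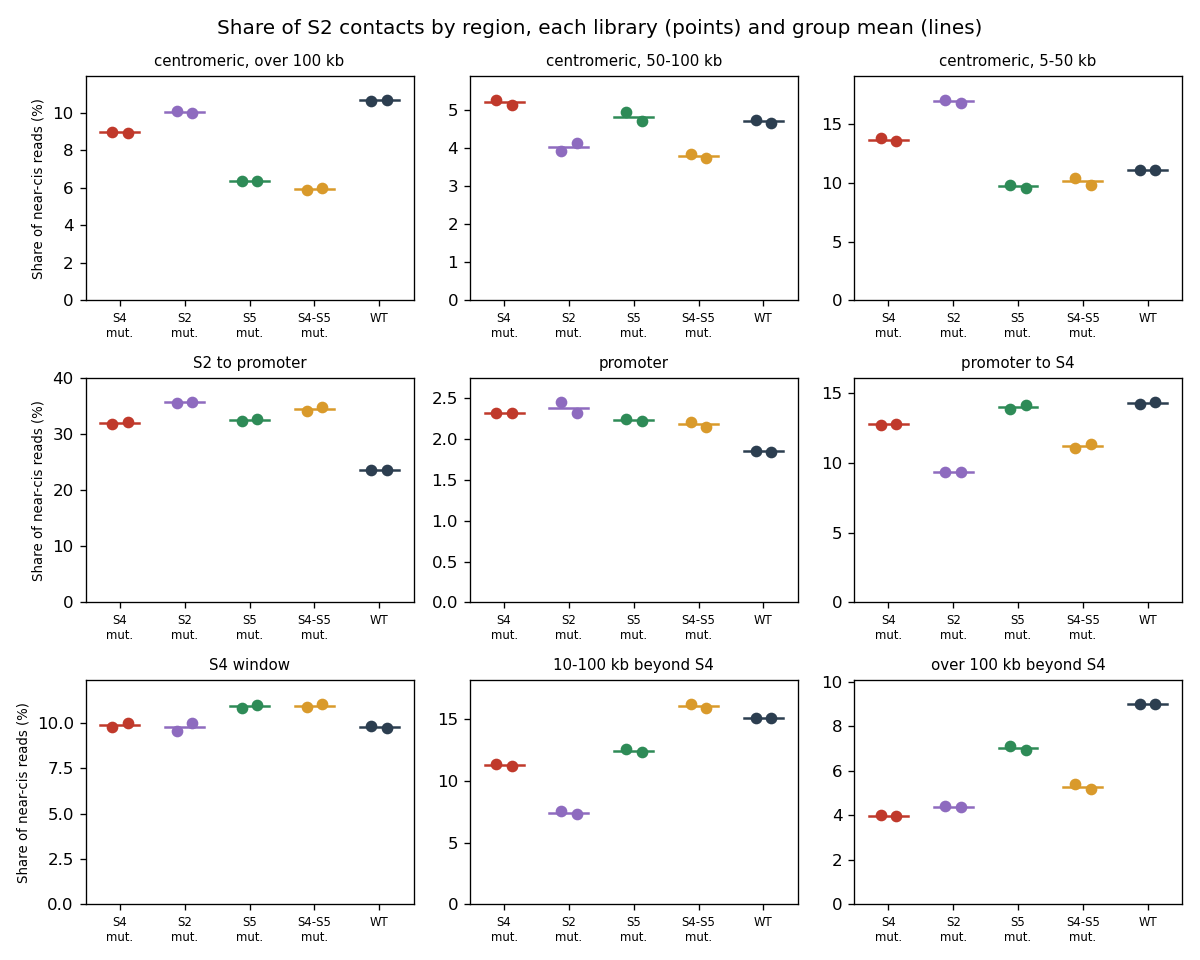
Share of near-cis reads from S2 (%, vertical) in the 9 regions that tile the window, points for each library and lines for the mean of 2, for the S4, S2, S5 and S4-S5 mutants and WT. The S4 window overlaps between the S4 mutant (9.78 and 10.0%) and WT (9.83 and 9.71%), S2 to promoter is higher in all 4 mutants than in WT, and the region over 100 kb beyond S4 is lowest in the S4 mutant.

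Telomeric of S4, contacts summed over each of 2 regions were fewer, and more so in the farther one. Within the nearer region the 10-kb bin from 139540001 was higher in the S4 mutant, at 1.72 and 1.69% against 1.45 and 1.44% in WT (log2 0.24, and -0.21 over non-blind ends). From 10 to 100 kb beyond S4 (139533747 to 139623746) the share was 11.3 and 11.2% in the S4 mutant and 15.1 and 15.1% in WT, with no overlap and a log2 fold change of -0.42 (SE 0.02, edgeR adjusted p = 2.41e-09). The size of this fall depended on the scaling. It was -0.10 by chromosome 9 reads, -0.28 with TMM factors, -0.28 over non-blind ends and -0.42 with DESeq2. More than 100 kb beyond S4 (139623747 to 139885872) it was 4.00 and 3.96% in the S4 mutant and 8.990 and 8.998% in WT. That is a log2 fold change of -1.18 (SE 0.02, edgeR adjusted p = 2.63e-12), or a fold of 0.442. The fall in this far telomeric region held under every scaling, mask, window, choice of ends and reference tried on read counts. It ran from -0.41 against the S4-S5 mutant, and -0.48 against the mean of the S2 and S5 mutants, to -1.43 over non-blind ends. The S4 mutant was not tested against the S2 mutant alone, which was itself below WT by 1.04. The fall against WT was thus largely shared by the S2 mutant. The far telomeric fall against WT was not called when ends with a read were counted in place of reads (log2 -0.13, edgeR adjusted p = 0.472). At matched depth, 23.0 and 23.7% of its 919 ends had a read in the S4 mutant, against 42.5 and 41.5% in WT, while over the far centromeric region the shares were 26.7 and 27.0% against 40.6 and 40.3%. The part of this wider loss of read ends in the result was not tested.

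The other mutants placed the S4 mutant at the low end. The far telomeric region held 4.39% ± 0.0176 (S2 mutant), 7.03% ± 0.121 (S5 mutant) and 5.29% ± 0.131 (S4-S5 mutant, SD, n = 2 each), all below WT. The S4 mutant was lower than the S5 mutant by 0.82 and than the S4-S5 mutant by 0.41 on the log2 scale, both past the threshold in edgeR. Of the 2 regions beyond S4, the nearer one was not lowest in the S4 mutant: it held 7.41% ± 0.156 (S2 mutant), 12.4% ± 0.129 (S5 mutant) and 16.0% ± 0.236 (S4-S5 mutant, SD, n = 2 each). With S4 and S5 both mutated it was thus above WT, although S4 was mutated there too.

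In bands of 50 kb by distance from S2, a division chosen after the values were seen, the telomeric side went from 0.43 at 5 to 50 kb through -0.13 at 100 to 150 kb, the band that holds S4, to -0.58 at 200 to 250 kb. The 4 bands from 300 to 500 kb were lower by 1.41 to 2.17 on the log2 scale, and still by 1.08 to 1.85 when scaled to chromosome 9 reads. Nearer S2 the direction depended on the scaling: by chromosome 9 reads the band that holds S4 turned to 0.20, the one from 150 to 200 kb (-0.36) lost its call at -0.039 (edgeR, adjusted p = 0.112) and the one from 250 to 300 kb (-0.18) turned to 0.14. On the centromeric side the 10 bands ran from -1.35 to 0.35 with no steady order, and the lowest was 150 to 200 kb from S2. All 20 bands passed the test (100% called), so a call by itself does not mark a band.

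**Figure D3:**
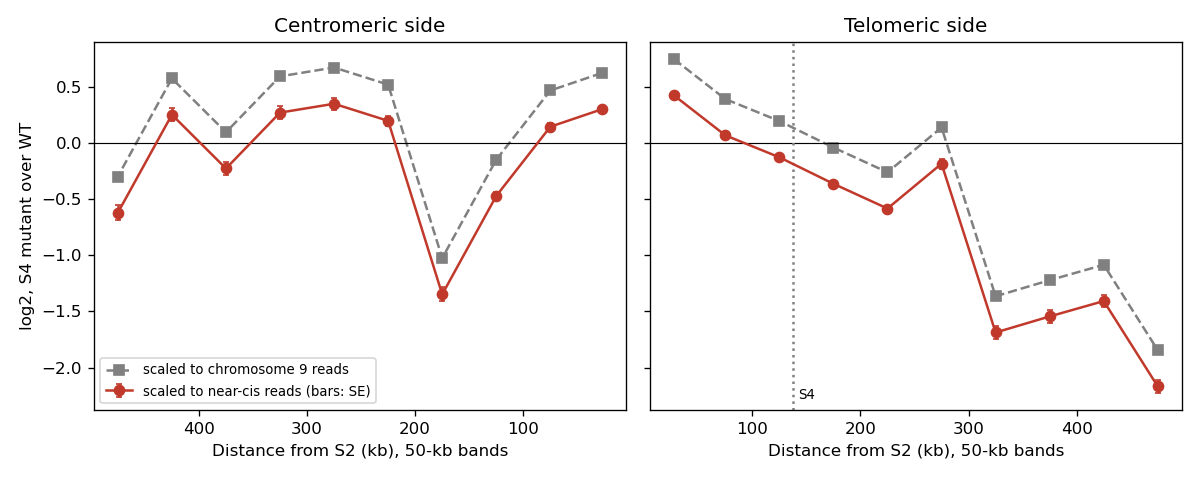
Log2 fold change of S2 contacts, S4 mutant over WT (vertical), in 50-kb bands by distance from S2 (kb, horizontal), centromeric side left and telomeric side right, scaled to near-cis reads (circles, bars for SE, 2 libraries a group) or to chromosome 9 reads (squares). The 4 farthest telomeric bands are lower by 1.41 to 2.17 with the first scaling and by 1.08 to 1.85 with the second, and the centromeric bands show no such trend.

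Ratios of 2 regions were taken within each library, which removes the scaling but does not match distances. The far telomeric region starts 100 kb beyond S4 and the far centromeric one 100 kb from S2, so they lie at unlike distances from S2. The slope of log reads with log distance was -0.99 in the S4 mutant and -0.72 in WT. Its part in both ratios was not tested. The log2 ratio of the far telomeric to the far centromeric region, added after the values were seen, was -1.17 ± 0.00687 in the S4 mutant, -1.19 ± 0.000757 with S2 mutated, 0.15 ± 0.0261 with S5 mutated, -0.16 ± 0.05 with S4 and S5 mutated and -0.24 ± 0.00351 in WT (SD, n = 2 each). A second log2 ratio, also added, set the region 10 to 100 kb beyond S4 against the reads from the mask to 10 kb short of S4. It was -2.06 ± 0.0179 in the S4 mutant, -2.68 ± 0.0284 with S2 mutated, -1.97 ± 0.0305 with S5 mutated, -1.58 ± 0.0414 with both S4 and S5 mutated and -1.40 ± 0.00304 in WT. Both differed among the 5 genotypes (exact permutation of the F statistic over 945 partings of 10 libraries into pairs, upper tail, p = 0.00106, the smallest it can give, adjusted 0.0013 over 17 values). Every one of the 17 values passed this test. The highest adjusted p by this exact permutation was 0.0402, for the share of the S4 window, in which the S4 mutant and WT overlapped. A pass therefore does not mark a value. With the 4 S4 mutant and WT libraries alone no two-sided exact test can go below p = 0.333.

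Centromeric of S2, the near region (139335872 to 139380871) held 13.7% ± 0.165 in the S4 mutant and 11.1% ± 0.0190 in WT (SD, n = 2 each), a log2 fold change of 0.30 (SE 0.03, edgeR adjusted p = 1.02e-06). The S2 mutant was higher still, at 16.9% ± 0.157, and the S5 and S4-S5 mutants were below WT, at 9.68% ± 0.202 and 10.1% ± 0.417. The region 50 to 100 kb centromeric held 5.19% ± 0.0856 in the S4 mutant and 4.69% ± 0.0538 in WT (log2 0.15). More than 100 kb centromeric the share was 8.95% ± 0.0333 in the S4 mutant and 10.6% ± 0.0325 in WT (log2 -0.25), which turned to 0.07 when scaled to chromosome 9 reads.

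Of the 95 bins of 10 kb tested, 82 differed (86.3%), 26 higher (27.4%) and 56 lower (58.9%) in the S4 mutant (edgeR, adjusted p under 0.05). The split moved to 37 and 39 when scaled to chromosome 9 reads, 37 and 40 with TMM factors and 39 and 38 with DESeq2. Counting ends with a read in place of reads, edgeR called 0 bins (0%), with 1 at an unadjusted p under 0.05. Telomeric of S4, 30 of 37 bins were lower and 4 higher, with a median log2 fold change of -1.06, against a median of -0.35 over all 95. Between S2 and S4, 7 of 13 were higher and 3 lower, and centromeric of S2, 15 of 45 were higher and 23 lower.

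The bin from 139730001, 349.1 kb telomeric of S2, fell most, with 5 reads over both S4 mutant libraries and 1022 over both WT libraries, at 9 fragment ends. The bins from 139870001, 139860001 and 139680001 had 155, 359 and 1159 reads in the S4 mutant against 2640, 2858 and 4146 in WT, log2 fold changes of -5.99, -4.89 and -3.75. The fifth, from 138990001 on the centromeric side, had 19 reads against 418 (log2 -6.33). WT libraries had reads at 4 to 17 ends in each of these 5 bins. The S2 mutant was below WT in 4 of these bins and above it in the one from 138990001.

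The 5 bins that rose most all lay centromeric of S2, 231 to 421 kb away, with log2 fold changes of 1.14 to 1.46. The largest, from 139150001, took 0.381 and 0.376% of near-cis reads in the S4 mutant and 0.143 and 0.132% in WT, where both groups had reads at 14 or 15 of its 35 ends. The one from 138960001 took 0.234 and 0.228% in the S4 mutant and 0.0846 and 0.0861% in WT, but 0.436% in the S2 mutant and 0.431% in the S5 mutant. In the bins from 139150001, 139120001 and 139070001 the S2 mutant's mean (0.406, 0.541 and 0.402%) was also above the S4 mutant's (0.378, 0.378 and 0.204%). In the bin from 139130001 it was below (0.0711 against 0.358%). The S5 mutant was below WT in each of these bins but the one from 138960001. A strong WT contact telomeric of S4, the bin from 139580001, took 1.64 and 1.62% in the S4 mutant against 3.20 and 3.19% in WT, a fall of log2 -0.97 (SE 0.04, edgeR adjusted p = 1.59e-09).

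**Figure D4:**
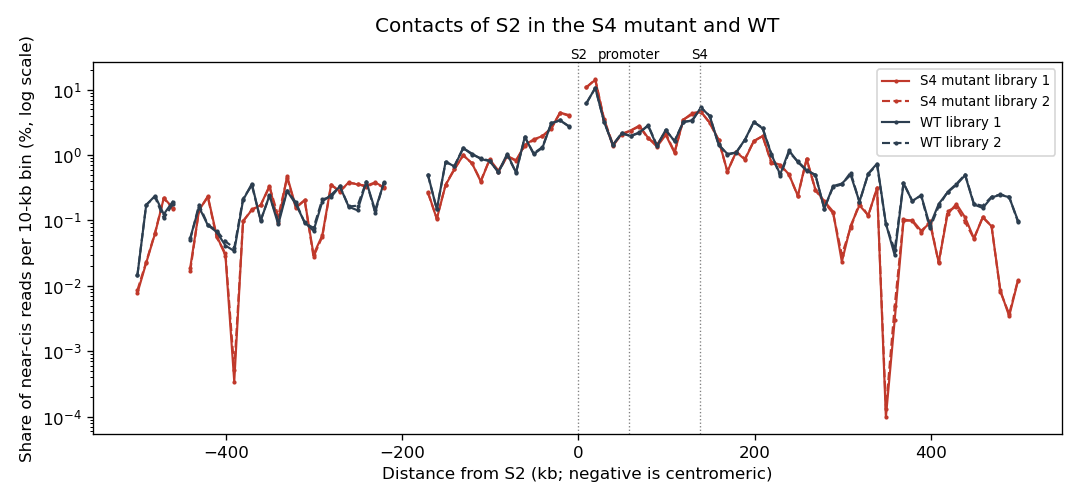
Share of near-cis reads from S2 per 10-kb bin (%, vertical, log scale) by distance from S2 (kb, horizontal), a line for each library of the S4 mutant and WT, broken where bins were not tested. Lines of a genotype overlie each other, the genotypes are close around S4, and beyond about 300 kb telomeric the S4 mutant lines run below the WT lines.

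Bins in which the S4 mutant differed in the same direction from WT, the S5 mutant, the S4-S5 mutant and the mean of the S2 and S5 mutants numbered 14 higher and 10 lower of 95. The contrasts with the 3 mutant references called 89.5, 88.4 and 93.7% of bins in either direction, and they share the S4 mutant libraries. The S2 mutant was not tested by itself here, and its mean was above that of the S4 mutant in 5 of the 14 higher bins, so these are not apart from all other genotypes. In 0 of the 10 lower bins was the S2 mutant's mean below that of the S4 mutant. Of the higher ones 13 lay centromeric of S2 and 0 telomeric of S4, where 15 and 4 of all 26 higher bins lay. Of the lower ones 6 lay telomeric of S4, among them 139620001 (0.503% in the S4 mutant and 1.14% in WT), and 4 lay centromeric of S2. Of all 56 lower bins, 30 lay telomeric of S4 and 23 centromeric of S2, so these 10 do not point to either side.

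Seen from the other end, the S4 viewpoint, the bin holding S2 (139380001 to 139390000) took 8.87 and 9.05% of near-cis reads in the S4 mutant and 5.98 and 5.79% in WT. It rose by 0.61 on the log2 scale (SE 0.03, edgeR adjusted p = 1.06e-13), in a comparison in which 91.8% of bins were called. The S5 mutant libraries were higher still, at 10.2 and 10.2%, as were the S4-S5 mutant libraries, at 10.1 and 10.2%. The S2 mutant libraries were lower than WT, at 4.57 and 4.69%.

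Outside near-cis, 14 of 96 bins of 1 Mb were higher (14.6%) and 75 lower (78.1%) in the S4 mutant (edgeR, adjusted p under 0.05, scaled to the reads more than 500 kb from S2). The split was 2 and 92 when scaled to all chromosome 9 reads outside the mask, and 42 and 53 with DESeq2. The most changed of these bins rest on few ends. The bin from 84000001 had 262 and 226 reads at 1 end in the S4 mutant, and 1 and 0 in WT. The bin from 87000001 had 1 and 0 reads in the S4 mutant, and 851 and 1137 at 5 ends in WT. The other named bins that were lower, from 2000001 and 5000001, had 0 to 2 reads per S4 mutant library, against 321 and 500 and against 828 and 1126 in the WT libraries. These falls were common to all mutants. Over both libraries the S2, S5 and S4-S5 mutants had 3, 7 and 1 reads in the bin from 87000001. They had 1, 1 and 0 in the one from 2000001, and 8, 7 and 2 in the one from 5000001. Of those that were higher, the bin from 141000001 had 739 and 621 reads in the S4 mutant and 3 and 4 in WT, and the bin from 83000001 had 737 and 661 in the S4 mutant and 219 and 290 in WT. In the S2, S5 and S4-S5 mutants these 2 bins had 7, 4 and 1047 reads and 5, 9 and 1, over both libraries.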

How the data were processed

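Per the file headers, each deposited table holds whole read counts per DpnII fragment end of chromosome 9 for 1 library, not normalized by the authors. Both deepTools and the hg19 build are named, without a role, by the submitters' processing notes. Aligner and read filters: not given in the sources used here. Per the labels' protocols, 200 ng of template went through 16 first PCR cycles and reads carry no molecular identifiers, so reads are not independent ligation events and counting errors cover counting only.

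The viewpoint was the 5-kb window with the most reads over 10 libraries. Counts outside a 5-kb mask and within 500 kb were summed in 10-kb bins (mean of at least 10 reads), 9 regions and 50-kb bands, and compared with edgeR 4.0.16 (quasi-likelihood F test, two-sided, 10 libraries in 1 fit, near-cis totals as library sizes), adjusted by Benjamini-Hochberg over the bins or regions of a contrast, at 0.05. The fits were tested on simulated data. DESeq2 1.42.0, TMM, chromosome 9 totals and other masks, windows, bins and ends were alternatives. Named bins are those holding S4 and the promoter, 3 on each side of S4, the 5 largest calls each way with separated libraries and the 5 highest in WT outside 50 kb. Members, regions and lists were chosen with earlier results of these data known.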

Additional observations from a re-analysis of the deposited data

Results flagged for a closer look

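Lines with and without the S4 mutation were compared with S5 intact (S4 mutant against WT) and with S5 mutated (S4-S5 mutant against S5 mutant). The log2 fold changes of these 2 comparisons differed past the test in 8 of 9 regions (edgeR interaction, adjusted p under 0.05). Given as the log2 fold change with S5 intact minus that with S5 mutated, the differences telomeric of S4 were -0.79 from 10 to 100 kb beyond S4 (-0.42 with S5 intact and 0.37 with S5 mutated) and -0.77 more than 100 kb beyond it (-1.18 and -0.41). Between S2 and the promoter the difference was 0.36, at the promoter 0.36, between the promoter and S4 0.16, in the near centromeric region 0.24, from 50 to 100 kb centromeric 0.50 and in the far centromeric region -0.15. Scaled to chromosome 9 reads, the 2 telomeric differences were -0.44 and -0.42, smaller than those of 0.85 from 50 to 100 kb centromeric, 0.71 at the promoter, 0.70 between S2 and the promoter, 0.58 in the near centromeric region and 0.50 between the promoter and S4, and the far centromeric one turned to 0.20. The order of the regions thus depends on the scaling. At S4 it was 0.01 (edgeR, adjusted p = 0.685), and 0.36 under that scaling. Each of the 4 genotypes has 2 libraries that share their rare ligation products. The labels do not say whether the S4-S5 line carries the same S4 change as the S4 line. An effect of the S4 mutation cannot be told apart here from other differences between the lines.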

How the results depend on the processing

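Leaving out any 1 of the 4 libraries, or adding the replicate number as a block, kept the direction and the side of the threshold of every region, named bin and value per library for which it was run, and moved each count of calls by less than 1.5 times. The numbers were taken as shared numbers only, since just 2 exist (correlation of same-numbered deviations between S4 mutant and WT 0.30); with the replicate block the bins called stayed at 26 higher and 56 lower. Without 1 library 76 to 79 bins were called, and the far telomeric fold ran from -1.19 to -1.17. Bins called numbered 38 of 46 within 250 kb (14 higher, 24 lower), 176 of 192 within 1 Mb (57 and 119), 160 of 186 at 5 kb (56 and 104), 45 of 50 at 20 kb (14 and 31) and 0 by ends with a read, against 62 higher and 27 lower with the mean of the S2 and S5 mutants as reference and 45 higher with the S5 mutant.

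The bin holding S4 was at 0.11 by chromosome 9 reads, 0.10 by TMM, 0.17 by DESeq2, 0.058 over non-blind ends and 0.062 by ends with a read, and lost its call with capped ends (-0.027), in a 5-kb bin (-0.13) and against the S5 mutant (-0.050). The promoter bin was at -0.29 by ends with a read, -0.0034 against the S2 and S5 mutants and 0.011 against the S5 mutant. By chromosome 9 reads 7 regions were higher and 2 lower, and by ends with a read 0 were called. The S4 window passed as higher by chromosome 9 reads (0.34), TMM (0.17), non-blind ends (0.36), capped ends (0.077), a 20-kb mask (0.15) and a 1-Mb window (0.066), and turned to -0.045 within 250 kb, -0.064 against the S2 and S5 mutants and -0.14 against the S5 mutant. S2 to promoter was at 0.20 by ends with a read, -0.091 and -0.024 against those 2 references. The nearer region beyond S4 was at -0.017 by ends with a read and 0.23 against the S2 and S5 mutants, and the far telomeric one at -0.13 by ends with a read.

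Other reversals were, in the far centromeric region, 0.073 by chromosome 9 reads, 0.16 against the S2 and S5 mutants and 0.49 against the S5 mutant; between promoter and S4, 0.16 by chromosome 9 reads, 0.086 over non-blind ends, 0.0053 by ends with a read and 0.16 against the S2 and S5 mutants; and by ends with a read, -0.052 from 50 to 100 kb centromeric and -0.11 at the promoter. Against the S2 and S5 mutants, bins turned to -0.91 (138960001), 0.039 (139490001), -0.37 (139500001), 2.80 (139550001), 0.36 (139580001) and 0.63 (139680001), and against the S5 mutant to -0.90 (138960001), -0.33 (139500001) and 0.15 (139550001). Over non-blind ends they turned to 0.25 (139490001), 0.61 (139530001) and -0.21 (139540001), by DESeq2 to 0.037 (139530001), and by ends with a read to -0.034 (139130001), 0.15 (139490001), -0.064 (139510001) and 0.10 (139530001). Over non-blind ends the promoter to S4 share turned to a difference of 0.828 percentage points and the top end's share to -0.424. Of 1-Mb bins, 2 were higher by chromosome 9 reads and 42 by DESeq2, and 22 of 23 bins of 5 Mb were called (2 higher, 20 lower). Subtracting the distant read density, an alternative chosen after seeing the data, left the far telomeric fold at -1.17. The cause of these changes was not tested. Few ligation products per end limit every value at a distance.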

Other observations

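Log reads declined with log distance from S2 with a slope of -0.99 ± 0.000561 in the S4 mutant and -0.72 ± 0.00209 in WT (SD, n = 2 each), and -1.06, -0.90 and -0.97 in the S2, S5 and S4-S5 mutants. Within 50 kb of S2 lay 44.5% ± 0.0426 of near-cis reads in the S4 mutant and 34.1% ± 0.0196 in WT. Of the near-cis ends read in the S4 mutant, 93.9% were also read in WT, and 79.3% of those read in WT were also read in the S4 mutant. In the S4 window, 76 ends were read in the S4 mutant, all of them also in WT, which had 86.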
